A study of Homo sapiens with 9 samples.

Results

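The BCL2 family genes described here are 10 in number: the BH3-only genes BCL2L11, BBC3, PMAIP1, BIK and BMF, the effector genes BAX, BAK1 and BOK, and the inhibitor genes MCL1 and BCL2L1. They were chosen by symbol for their place in the mitochondrial pathway of apoptosis, and all 10 were present among the 17518 genes with normalized read counts. All 10 also passed the filter on low values, which kept 17514 genes. The cells were COR-L279, a wild-type human tumour line of small cell lung cancer (SCLC) and of its SCLC-N subtype, the one that carries high NEUROD1, a neuronal transcription factor. The compound JQ1 occupies the acetyl-lysine pockets of BET bromodomain proteins and takes these transcription cofactors off chromatin. One group received 0.5 µM JQ1 for 24 h, another 1.5 µM JQ1 for 24 h, and the controls received the vehicle DMSO for 24 h. Each group had 3 libraries of total RNA, 9 in all, every one from the same line, and the study asked how BET inhibition acts on cells of this subtype.

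Mitochondrial apoptosis turns on contacts between BCL2 family proteins. The effectors BAX and BAK1 open pores in the outer mitochondrial membrane, inhibitors such as MCL-1 and BCL-XL hold them shut, and BH3-only proteins, each induced by its own kinds of stress, either occupy the inhibitors or switch the effectors on. SCLC cells often depend on BCL2, BCL-XL or MCL-1 to survive, and the BH3-only protein BIM, made from BCL2L11, is a well-known mediator of their death under drugs that mimic BH3-only proteins.

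Promoter windows are shown for 4 genes that carry the pattern below: BCL2L11 and PMAIP1, which rose, BOK, which fell, and BAX, the most abundant member per transcript length. Each is the 250 bases before the annotated gene start in RefSeq, build GRCh38.p14, whereas the deposited expression values use hg19. BCL2L11 lies at chr2:111120664-111120913 (+ strand), PMAIP1 at chr18:59899746-59899995 (+ strand), BAX at chr19:48954625-48954874 (+ strand) and BOK at chr2:241558495-241558744 (+ strand). RefSeq windows were matched for 8 of the 10 genes, 10 windows in all, with 2 each for BMF and BCL2L1. Capitals mark CACGTG, the E-box form that MYC binds, and GGGCGG or its reverse complement CCGCCC, the GC box of SP1.
BCL2L11: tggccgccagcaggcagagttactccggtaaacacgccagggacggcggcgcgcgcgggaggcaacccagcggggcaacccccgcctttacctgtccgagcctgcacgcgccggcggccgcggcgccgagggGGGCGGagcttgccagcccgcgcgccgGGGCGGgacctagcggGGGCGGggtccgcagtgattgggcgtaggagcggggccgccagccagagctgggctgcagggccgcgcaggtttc
PMAIP1: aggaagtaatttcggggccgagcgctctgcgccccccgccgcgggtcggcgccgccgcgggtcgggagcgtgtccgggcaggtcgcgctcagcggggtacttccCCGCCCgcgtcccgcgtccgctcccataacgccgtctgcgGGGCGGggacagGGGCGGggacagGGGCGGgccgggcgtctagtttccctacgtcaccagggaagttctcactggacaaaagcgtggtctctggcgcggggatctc
BAX: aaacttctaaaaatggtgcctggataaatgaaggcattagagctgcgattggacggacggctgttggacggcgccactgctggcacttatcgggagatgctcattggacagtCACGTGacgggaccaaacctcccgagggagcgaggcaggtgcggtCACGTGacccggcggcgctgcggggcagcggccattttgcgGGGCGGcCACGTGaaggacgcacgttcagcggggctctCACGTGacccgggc
BOK: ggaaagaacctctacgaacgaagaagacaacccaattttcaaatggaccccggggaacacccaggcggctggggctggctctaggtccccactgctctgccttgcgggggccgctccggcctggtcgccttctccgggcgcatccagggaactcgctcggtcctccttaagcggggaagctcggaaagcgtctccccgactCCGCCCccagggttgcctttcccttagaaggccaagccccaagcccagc

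The BCL2L11 window was 76.8% G or C with 34 CpG dinucleotides, the PMAIP1 window 72.8% with 36, the BAX window 62.8% with 25 and the BOK window 64.4% with 17. The median over 35116 promoter windows was 58% and 11 CpG dinucleotides. BAX held 4 copies of CACGTG, starting 138, 93, 45 and 14 bases before the gene start, and 1 copy of GGGCGG. BBC3, whose window is not printed, held 1 copy of CACGTG, so 2 of the members' 10 windows had this motif, against 6.34% of all windows. GGGCGG stood 3 times in the BCL2L11 window, 4 times in that of PMAIP1 and 1 time in that of BOK. It was found in 6 of the 10 windows, each of a different gene, and in 42.6% of all windows. Further motifs searched were 2 E-box forms bound by neurogenic factors and the TATA box. The E-box CAGATG was in none of the 10 windows (0) and in 12.2% of all windows. The other form, CAGCTG, was in 1 window (BMF) and in 14% of all windows. The TATA box, TATAAA, was in 1 window (BCL2L1) and in 10.7% of all windows. All motifs were searched on both strands, and no match overlapped another in the members' windows. These matches describe the letters in the windows and are not binding data.

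Library depth was 60721187 (0.5 µM replicate 2) to 88482001 (DMSO replicate 2) reads in genes. On the second principal component, with 10.0% of the variance, 0.5 µM replicate 2 stood at 50.5 and the other 8 libraries between -26.1 and 11.7. In 3 libraries, called H19-rich below, namely 0.5 µM replicate 3 and 1.5 µM replicates 1 and 2, the noncoding RNA H19 reached 1563, 2071 and 1476 normalized counts, against at most 82.8 in the other 6 libraries. SLC2A3, a glucose transporter gene, reached 489, 479 and 390.5 in them and at most 3.52 elsewhere. DCN and YAP1, from the lists of markers of other cells and subtypes, stood apart in the same 3 libraries. DCN, a stromal marker, was at 0.41, 0.41 and 0.4 FPKM in them and at most 0.02 FPKM elsewhere. YAP1, an SCLC subtype marker, was at 0.59, 0.48 and 0.52 FPKM in them and at most 0.07 FPKM elsewhere. The other stromal markers listed did not stand apart in this way. In the same libraries COL1A1 was at 0.32, 0.24 and 0.41 FPKM, against up to 0.48 FPKM elsewhere. PDGFRB was at 0.36, 0.02 and 0.03 FPKM in them, against up to 0.15 FPKM elsewhere. COL1A2 was highest in DMSO. Calls lost without the 3 H19-rich libraries are given both ways, and what sets these libraries apart was not tested. The line's markers fitted its label: NEUROD1 averaged 354 FPKM at 0.5 µM, 361 FPKM at 1.5 µM and 267 FPKM in DMSO, while POU2F3, the marker of another SCLC subtype, was at most 0.1 FPKM in every library. Of 14 marker genes of other cells, 13 were found, 6 stayed under 0.1 FPKM in every library and the endothelial marker VWF was at 0 in all of them. Their summed level was 5.69 to 7.3 FPKM at 0.5 µM, 5.31 to 6.27 FPKM at 1.5 µM and 16.07 to 17.61 FPKM in DMSO, most of it the collagen gene COL1A2, and the part of these markers in the results was not tested. HEXIM1, a transcript known to rise under BET inhibitors, rose 4.87-fold at 0.5 µM and 6.19-fold at 1.5 µM against DMSO.

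The family did not move as a block. At 0.5 µM against DMSO 4 of the 10 genes rose (BCL2L11, PMAIP1, BMF and MCL1), 5 fell (BBC3, BIK, BAX, BOK and BCL2L1) and BAK1 did not pass the test. At 1.5 µM against DMSO these 4 genes rose and these 5 fell, and BAK1 again did not pass. The test was limma on log2(normalized count + 1), with Benjamini-Hochberg adjustment over all genes tested and a threshold of 0.05. JQ1 changed most of the transcriptome by this test: 70% of all genes passed at 0.5 µM, 35.3% higher and 34.7% lower, and 73.1% at 1.5 µM, 36.9% higher and 36.2% lower. The 9 of 10 members called at each dose are to be read against these shares, and both comparisons use the same DMSO libraries. The median log2 fold change of the 10 was -0.09 at 0.5 µM and -0.08 at 1.5 µM, against -0.01 and -0.0030 over all genes tested. Their median absolute log2 fold change was 0.33 at 0.5 µM and 0.34 at 1.5 µM, against 0.38 and 0.43 over all genes tested. Without the 3 H19-rich libraries the members gave 4 higher and 4 lower at 0.5 µM, and 2 higher and 5 lower at 1.5 µM, where 1 library was then left and was assumed to vary like those of the other groups. In bulk RNA, a change in transcripts per cell and a change in the share of cells that carry them cannot be told apart.

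**Figure D1:**
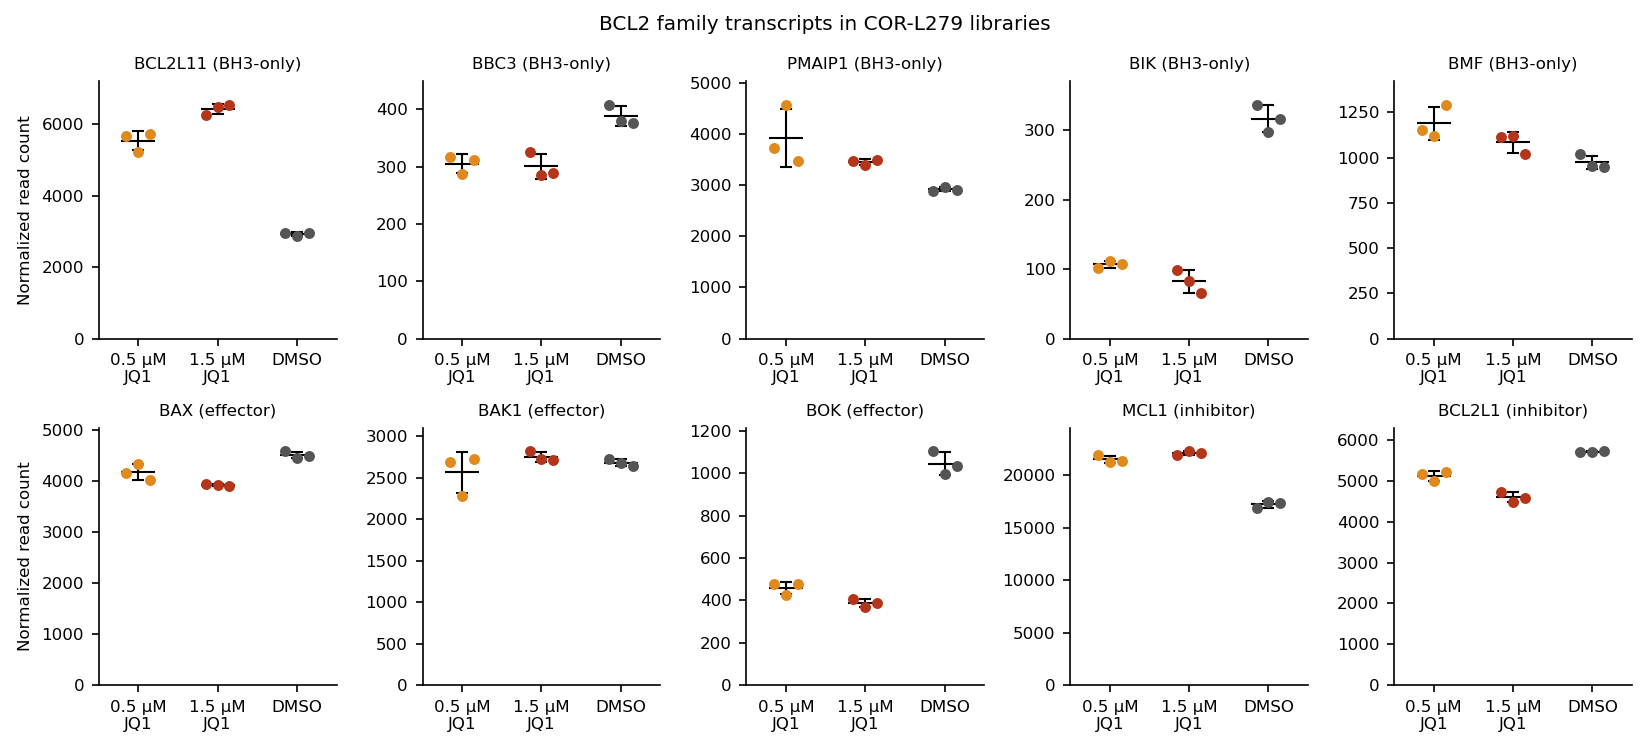
Normalized read counts of the 10 genes in every library (points), with the mean (long bar) and SD (whiskers) of 3 libraries for 0.5 µM JQ1, 1.5 µM JQ1 and DMSO; each panel has its own axis from 0. BCL2L11 and MCL1 stand higher in all JQ1 libraries than in all DMSO libraries, BIK and BOK stand lower in all of them, and the BAK1 groups overlap.

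BCL2L11 (ENSG00000153094.17) encodes BIM, a BH3-only protein that binds every BCL2-type inhibitor and can activate BAX and BAK1 directly. Its normalized count was 5672, 5227 and 5733 at 0.5 µM, 6262, 6473 and 6546 at 1.5 µM, and 2957, 2864 and 2962 in DMSO. The 3 groups did not overlap, and the higher dose had the higher counts. BCL2L11 rose 1.89-fold at 0.5 µM (log2 fold change 0.92 ± 0.040, SE, adjusted p = 1.7e-08) and 2.19-fold at 1.5 µM (1.13 ± 0.040, adjusted p = 2.36e-09) against DMSO. At 1.5 µM 94.4% of all genes tested had a lower log2 fold change. It was the only member called with a rise of at least 2-fold at 1.5 µM, as were 7.05% of all genes tested, but on FPKM values its log2 fold change was 0.85, below 2-fold. At 0.5 µM no member was, against 4.82% of all genes tested. MIR4435-2HG, a noncoding gene annotated over BCL2L11 on the opposite strand, averaged 3.63 FPKM at 0.5 µM, 2.90 FPKM at 1.5 µM and 7.79 FPKM in DMSO. It thus ran the other way from BCL2L11, and as no source used here states whether reads were counted by strand, reads of these genes may not be fully separated. The gene value also sums the BIM isoforms, which differ in potency.

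PMAIP1 (ENSG00000141682.11) encodes NOXA, a BH3-only protein that binds chiefly MCL-1 and promotes its breakdown. PMAIP1 had normalized counts of 3734, 4576 and 3479 at 0.5 µM, 3483, 3392 and 3492 at 1.5 µM, and 2897, 2963 and 2902 in DMSO. Every JQ1 library lay above every DMSO library, and 0.5 µM replicate 2 stood highest. The rise was 1.34-fold at 0.5 µM (0.42 ± 0.080, SE, adjusted p = 0.000851) and 1.18-fold at 1.5 µM (0.24 ± 0.080, adjusted p = 0.0189). Without 0.5 µM replicate 2 the log2 fold change at 0.5 µM was 0.30 (adjusted p = 7.59e-06). Its call at 1.5 µM was lost on FPKM values (0.16, adjusted p = 0.153), without 1.5 µM replicate 1 or 3 (adjusted p = 0.0519 and 0.0528), without DMSO replicate 1 or 3 (0.0513 and 0.0500001) and without the 3 H19-rich libraries (0.0770).

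BMF (ENSG00000104081.9), a BH3-only gene whose protein is held at the cytoskeleton through a dynein light chain, had the smallest rise of the group. Its normalized count was 1153, 1121 and 1291 at 0.5 µM, 1115, 1121 and 1019 at 1.5 µM, and 1017, 956 and 947 in DMSO. All JQ1 libraries were above all DMSO libraries, though 1.5 µM replicate 3 exceeded DMSO replicate 1 by little. BMF rose 1.22-fold at 0.5 µM (0.29 ± 0.065, SE, adjusted p = 0.00247). At 1.5 µM the value was 1.11-fold (0.16 ± 0.065, adjusted p = 0.0497), a call at the threshold that was lost in 13 of 23 alternatives. Among these were the FPKM values (0.08, adjusted p = 0.475) and the fit without the 3 H19-rich libraries (0.07, adjusted p = 0.488). Leaving out 0.5 µM replicate 1 (adjusted p = 0.0588), 1.5 µM replicate 1 (0.138) or 2 (0.148), or DMSO replicate 2 (0.127) or 3 (0.134), also lost it.

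The other BH3-only genes fell. BIK (ENSG00000100290.2) encodes a BH3-only protein of the endoplasmic reticulum and was the member with the largest change in either direction. BIK had 102, 112 and 107 normalized counts at 0.5 µM, 99.0, 83.4 and 65.7 at 1.5 µM, and 337, 298 and 316 in DMSO. Its JQ1 libraries all lay far below the DMSO libraries, and those at 1.5 µM lay below those at 0.5 µM. BIK was 2.95-fold lower at 0.5 µM (-1.56 ± 0.144, SE, adjusted p = 3.84e-06) and 3.85-fold lower at 1.5 µM (-1.94 ± 0.144, adjusted p = 5.19e-07). At 1.5 µM 4.7% of all genes tested had a lower log2 fold change.

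BBC3 (ENSG00000105327.11) encodes PUMA, a BH3-only protein that binds all the main inhibitors. Its normalized count was 317, 286 and 311 at 0.5 µM, 326, 286 and 289 at 1.5 µM, and 408, 380.2 and 375 in DMSO. Every JQ1 library was below every DMSO library, and the JQ1 groups overlapped each other. BBC3 fell 1.27-fold at 0.5 µM (-0.35 ± 0.080, SE, adjusted p = 0.00278) and 1.29-fold at 1.5 µM (-0.37 ± 0.080, adjusted p = 0.00166), and both calls held in all 23 alternatives.

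Among the effectors, BAX (ENSG00000087088.15) and BAK1 (ENSG00000030110.8) are the pore formers of nearly all cells. BAX had normalized counts of 4169.7, 4339.8 and 4025 at 0.5 µM, 3948, 3921 and 3898 at 1.5 µM, and 4586, 4462 and 4489 in DMSO. The groups did not overlap, with 1.5 µM lowest, 0.5 µM next and DMSO highest, but the distance was small. BAX was 1.08-fold lower at 0.5 µM (-0.11 ± 0.034, SE, adjusted p = 0.0138) and 1.15-fold lower at 1.5 µM (-0.20 ± 0.034, adjusted p = 0.00031). The call at 0.5 µM was lost without 0.5 µM replicate 3 (-0.08, adjusted p = 0.0510), without the 3 H19-rich libraries (adjusted p = 0.109) and on FPKM values (-0.05, adjusted p = 0.596). On FPKM values the call at 1.5 µM was lost as well (-0.16, adjusted p = 0.0712).

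BAK1 had normalized counts of 2693, 2284 and 2726 at 0.5 µM, 2818, 2721 and 2709 at 1.5 µM, and 2729, 2674 and 2641 in DMSO. The groups overlapped, and 0.5 µM replicate 2 was the lowest of the 9 libraries. The log2 fold change was -0.07 at 0.5 µM (95% confidence interval -0.20 to 0.07, adjusted p = 0.347) and 0.04 at 1.5 µM (-0.10 to 0.17, adjusted p = 0.611). Without 0.5 µM replicate 2 the value at 0.5 µM was 0.015 (adjusted p = 0.691), and on FPKM values and under upper-quartile scaling the value at 1.5 µM was -0.021 and -0.015, so no direction can be given. A pseudogene copy, BAK1P1, had 0.52 to 1.07 FPKM over the 9 libraries and may share reads with BAK1.

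BOK (ENSG00000176720.3) encodes an effector-like protein of intracellular membranes that inhibitors restrain poorly and whose level is kept low by protein breakdown. Its normalized count was 475, 425 and 477 at 0.5 µM, 407, 367 and 389.8 at 1.5 µM, and 1104, 998 and 1037 in DMSO. Each group lay apart from the others, with the DMSO libraries more than 500 counts above any JQ1 library. BOK fell 2.28-fold at 0.5 µM (-1.19 ± 0.070, SE, adjusted p = 1.3e-07) and 2.69-fold at 1.5 µM (-1.43 ± 0.070, adjusted p = 2.16e-08). BIK and BOK were the members called with a fall of at least 2-fold, at both doses, as were 10.1% of all genes tested at 0.5 µM and 11.8% at 1.5 µM.

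The inhibitors moved in opposite directions. MCL1 (ENSG00000143384.8) encodes MCL-1, a short-lived inhibitor that holds BAK1 and BIM. MCL1 had 21947, 21299 and 21360.4 normalized counts at 0.5 µM, 21993, 22304 and 22154 at 1.5 µM, and 16864, 17454 and 17388 in DMSO. All JQ1 libraries were above all DMSO libraries, with little spread within a group. The rise was 1.25-fold at 0.5 µM (0.32 ± 0.027, SE, adjusted p = 1.74e-06) and 1.29-fold at 1.5 µM (0.36 ± 0.027, adjusted p = 5.04e-07), and it was called in all 23 alternatives at each dose.

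BCL2L1 (ENSG00000171552.8) encodes BCL-XL, the long-lived inhibitor of BAX and BAK1, and by splicing also the short pro-apoptotic form BCL-XS, which gene counts do not separate. Its normalized count was 5178, 4999.5 and 5227 at 0.5 µM, 4736, 4484 and 4599 at 1.5 µM, and 5713, 5727 and 5731 in DMSO. The 1.5 µM libraries were lowest, the 0.5 µM libraries next and the DMSO libraries highest, without overlap. BCL2L1 fell 1.11-fold at 0.5 µM (-0.16 ± 0.032, SE, adjusted p = 0.00128) and 1.24-fold at 1.5 µM (-0.31 ± 0.032, adjusted p = 6.32e-06), and both calls held in all 23 alternatives. Of the 10 genes, 9 had JQ1 and DMSO groups that did not overlap at each dose, against 72.6% of all genes tested at 0.5 µM and 81.7% at 1.5 µM.

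**Figure D2:**
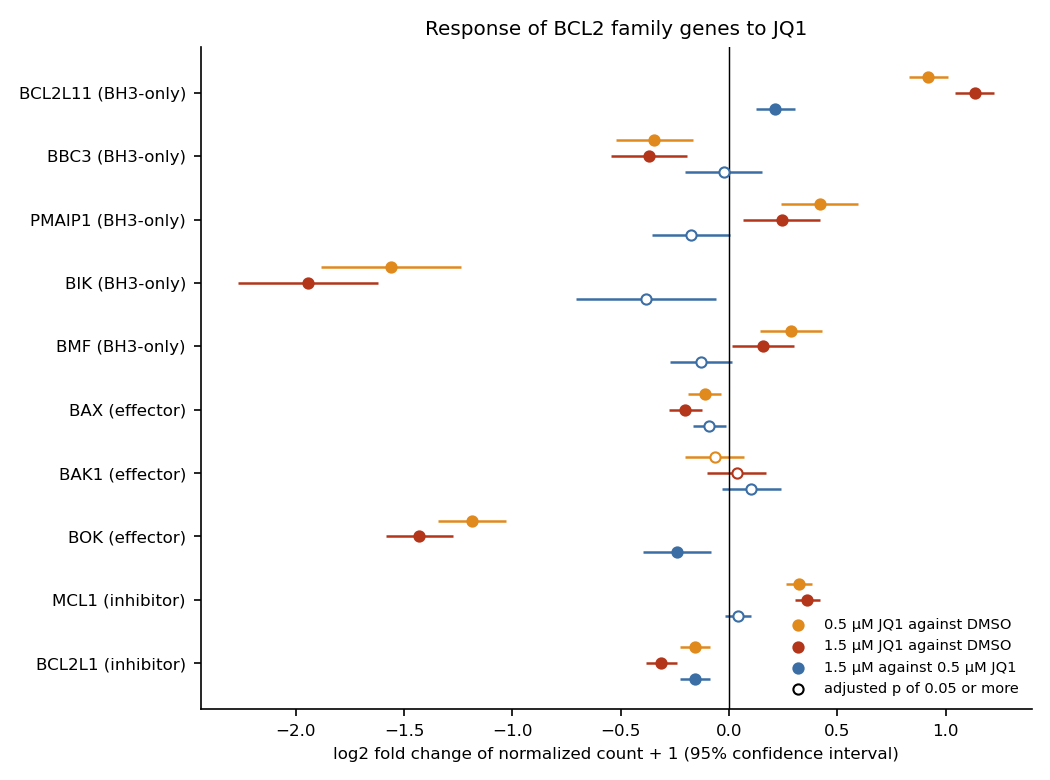
Log2 fold changes of normalized count + 1 (horizontal axis, with 95% confidence intervals) of the 10 genes for 0.5 µM JQ1 against DMSO, 1.5 µM JQ1 against DMSO and 1.5 µM against 0.5 µM JQ1; open points have an adjusted p of 0.05 or more. BCL2L11 lies farthest right (0.92 and 1.13), BIK (-1.56 and -1.94) and BOK (-1.19 and -1.43) farthest left, and the intervals of BAK1 include 0.

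The doses were then set against each other. At 1.5 µM against 0.5 µM 1 member rose (BCL2L11), 2 fell (BOK and BCL2L1) and 7 did not pass, against 12.7% of all genes tested called, 4.66% higher and 8.09% lower. BCL2L11 was 1.16-fold higher at 1.5 µM (0.21 ± 0.040, SE, adjusted p = 0.00845), BCL2L1 was 1.11-fold lower (-0.16 ± 0.032, adjusted p = 0.012) and BOK 1.18-fold lower (-0.24 ± 0.070, adjusted p = 0.0492). No member was called with a difference of at least 2-fold, as were 0.0457% of all genes tested with a rise and 0.183% with a fall. The libraries of the doses did not overlap for 7 members, against 33.7% of all genes tested. BMF was among them by a narrow gap, with 1120.82 normalized counts at 1.5 µM replicate 2 and 1121.05 at 0.5 µM replicate 2. In FPKM its doses overlapped, with 4.43 at 1.5 µM replicate 1 and 4.42 at 0.5 µM replicate 1. BIK was among these 7 and had the largest difference, -0.38 (95% confidence interval -0.70 to -0.06, adjusted p = 0.113). It moved with single libraries, to -0.23 without 1.5 µM replicate 3 (adjusted p = 0.306) and to -0.52 without 1.5 µM replicate 1 (adjusted p = 0.0497, past the test), and to -0.69 without the 3 H19-rich libraries (adjusted p = 0.150). PMAIP1 had -0.18 (-0.35 to 0.0032, adjusted p = 0.181) and BMF -0.13 (-0.27 to 0.01, adjusted p = 0.217), both higher at 0.5 µM in value but not past the test. PMAIP1 moved to -0.061 without 0.5 µM replicate 2 (adjusted p = 0.264) and passed without 0.5 µM replicate 3 (-0.26, adjusted p = 0.0435). BMF moved to -0.069 without 0.5 µM replicate 3 (adjusted p = 0.455) and to -0.085 without 1.5 µM replicate 3 (adjusted p = 0.501). BAX (-0.09), BAK1 (0.10), MCL1 (0.04) and BBC3 (-0.02) did not pass either. The call of BOK was lost in 14 of 23 alternatives, and without any 1 library other than 0.5 µM replicate 2 its adjusted p was 0.0620 to 0.170. The call of BCL2L1 was lost without 1.5 µM replicate 2 (adjusted p = 0.0631) or 3 (0.0525), and that of BCL2L11 on FPKM values (0.14, adjusted p = 0.143). Without the 3 H19-rich libraries, which leaves 1 library at 1.5 µM, no member passed (BCL2L11 0.27, adjusted p = 0.164) and 48 genes in all were called, against 2233 with all libraries.

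Levels of different genes were compared in FPKM, which are scaled for transcript length. At 0.5 µM the order was BAX (95.1 ± 10.8 FPKM, SD, n = 3), MCL1 (83.8 ± 1.77), BCL2L1 (36.8 ± 0.998), PMAIP1 (32.9 ± 5.03), BCL2L11 (22.3 ± 0.939), BAK1 (18.5 ± 1.70), BMF (4.59 ± 0.200), BBC3 (2.95 ± 0.0917), BOK (2.61 ± 0.167) and BIK (1.94 ± 0.10). BCL2L1 and PMAIP1 overlapped, and no other neighbours in this order did. At 1.5 µM the genes stood in this order too, with BAX at 87.3 ± 0.970 FPKM, MCL1 at 85.8 ± 0.119, BCL2L1 at 32.4 ± 0.825, PMAIP1 at 28.6 ± 0.567, BCL2L11 at 24.6 ± 0.850, BAK1 at 19.5 ± 0.565, BMF at 4.03 ± 0.382, BBC3 at 2.95 ± 0.185, BOK at 2.18 ± 0.120 and BIK at 1.48 ± 0.305. No neighbours overlapped at this dose. In DMSO the order was BAX (97.8 ± 3.80 FPKM), MCL1 (70.4 ± 1.52), BCL2L1 (40.0 ± 0.306), PMAIP1 (25.6 ± 0.936), BAK1 (19.8 ± 0.379), BCL2L11 (13.6 ± 0.607), BOK (6.13 ± 0.331), BIK (5.86 ± 0.366), BBC3 (3.95 ± 0.196) and BMF (3.81 ± 0.356), with overlap between BOK and BIK and between BBC3 and BMF. The top 4 genes thus kept their places. BCL2L11 stood above BAK1 at both doses and below it in DMSO, and BOK and BIK were the lowest 2 under JQ1 but stood above BBC3 and BMF in DMSO. In DMSO 94.0% of the genes tested had a lower mean FPKM than BAX, and 35.8% a lower one than BMF. BCL2 itself, the founding inhibitor, was at 0.01 to 0.04 FPKM in every library, and the inhibitor gene BCL2A1 was listed at 0 in all of them.

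**Figure D3:**
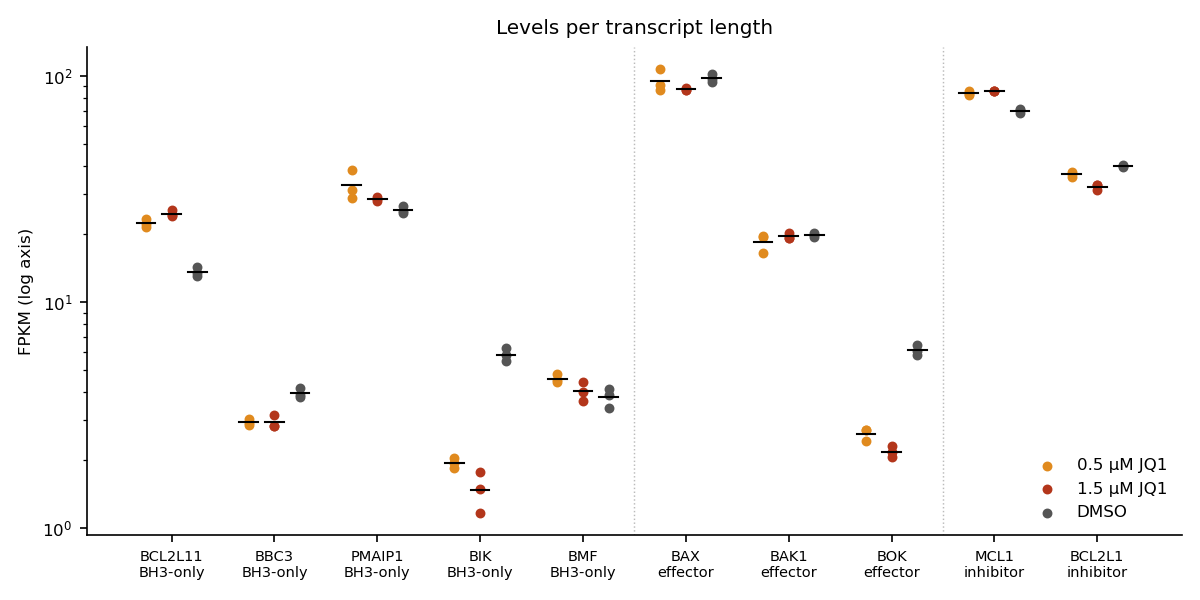
FPKM (log axis) of the 10 genes in every library, with the mean of 3 libraries as a bar, for 0.5 µM JQ1, 1.5 µM JQ1 and DMSO from left to right within each gene. The levels span from BIK at 1.5 µM (1.48 FPKM) to BAX in DMSO (97.8 FPKM), and BCL2L11 crosses above BAK1 under JQ1.

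The balance among these 10 genes depended on which transcripts were summed. The 8 pro-apoptotic genes summed over the 2 inhibitors gave ratios of 1.43, 1.66 and 1.41 at 0.5 µM, 1.45, 1.44 and 1.44 at 1.5 µM, and 1.70, 1.56 and 1.54 in DMSO. The 1.5 µM libraries all lay below the DMSO libraries, while 0.5 µM replicate 2 lay within the DMSO range. Means were 1.50 ± 0.138, 1.44 ± 0.0058 and 1.60 ± 0.0862 (SD, n = 3) at 0.5 µM, at 1.5 µM and in DMSO. BAX made up 52.5% of the pro-apoptotic sum at 0.5 µM, 51.1% at 1.5 µM and 55.4% in DMSO. MCL1 made up 69.5% of the inhibitor sum at 0.5 µM, 72.6% at 1.5 µM and 63.7% in DMSO. Leaving out BAX and MCL1, the highest gene on each side, left BCL2L1 alone as the denominator. BCL2L1 averaged 36.8 FPKM at 0.5 µM, 32.4 FPKM at 1.5 µM and 40.0 FPKM in DMSO. The ratio was then 2.29, 2.47 and 2.23 at 0.5 µM, 2.59, 2.60 and 2.52 at 1.5 µM, and 2.06, 1.93 and 1.91 in DMSO. Every JQ1 library was then above every DMSO library. The order of the JQ1 and DMSO means was thus opposite with and without these 2 highly expressed genes. No test was made on the ratios, which are descriptions over chosen genes.

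The 5 BH3-only members together summed to 64.6 ± 4.14 FPKM at 0.5 µM, 61.6 ± 1.01 FPKM at 1.5 µM and 52.8 ± 2.09 FPKM in DMSO. The 2 inhibitor members together came to 120.7 ± 2.5 FPKM at 0.5 µM, 118 ± 0.799 FPKM at 1.5 µM and 110.4 ± 1.82 FPKM in DMSO, and the 3 effectors to 116 ± 8.94, 109 ± 0.811 and 124 ± 4.45 FPKM. Over these members alone, the BH3-only sum over the inhibitor sum was 0.511, 0.589 and 0.510 at 0.5 µM, 0.527, 0.516 and 0.521 at 1.5 µM, and 0.509, 0.466 and 0.460 in DMSO. The highest DMSO library was thus just below the lowest 0.5 µM library. This order did not hold over more of the family. BAD, a BH3-only gene outside the 10 that was singled out after its values were seen, had 37.5 ± 2.45 FPKM at 0.5 µM, 31.7 ± 0.905 FPKM at 1.5 µM and 40.0 ± 1.80 FPKM in DMSO. Its log2 fold change was -0.10 at 0.5 µM (adjusted p = 0.1002) and -0.33 at 1.5 µM (adjusted p = 0.000214). With BAD, BID and HRK added to the BH3-only genes, and BCL2, BCL2A1, BCL2L2 and BCL2L10 to the inhibitors, an alternative added after seeing the data, the ratio was 0.805, 0.947 and 0.810 at 0.5 µM, 0.814, 0.798 and 0.784 at 1.5 µM, and 0.912, 0.867 and 0.822 in DMSO. The 1.5 µM libraries then lay below all DMSO libraries, the reverse of the order over the 7 members, and the 0.5 µM libraries lay on both sides of the DMSO range. The BH3-only sum with these genes was 117 ± 7.99 FPKM at 0.5 µM, 107 ± 2.20 FPKM at 1.5 µM and 115 ± 4.25 FPKM in DMSO, so the 1.5 µM mean was then below that of DMSO. Within the 5 members, BCL2L11 made up 34.7 ± 3.45% of the BH3-only sum at 0.5 µM, 39.9 ± 1.40% at 1.5 µM and 25.7 ± 0.470% in DMSO. Of the same sum PMAIP1 made up 50.6 ± 4.47%, 46.4 ± 0.167% and 48.4 ± 0.211%.

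BCL2L11 was also set against each inhibitor. BCL2L11 over MCL1 was 0.258, 0.261 and 0.279 at 0.5 µM, 0.280, 0.282 and 0.298 at 1.5 µM, and 0.208, 0.184 and 0.188 in DMSO. All JQ1 libraries lay above all DMSO libraries, although MCL1 rose too. BCL2L11 over BCL2L1 was 0.598, 0.600 and 0.619 at 0.5 µM, 0.731, 0.769 and 0.775 at 1.5 µM, and 0.359, 0.326 and 0.333 in DMSO. The 3 groups did not overlap, and this ratio combines a rising numerator with a falling denominator. MCL1 over BCL2L1, the makeup of the inhibitor pair, was 2.28 ± 0.0499 at 0.5 µM, 2.65 ± 0.0694 at 1.5 µM and 1.76 ± 0.0248 in DMSO.

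**Figure D4:**
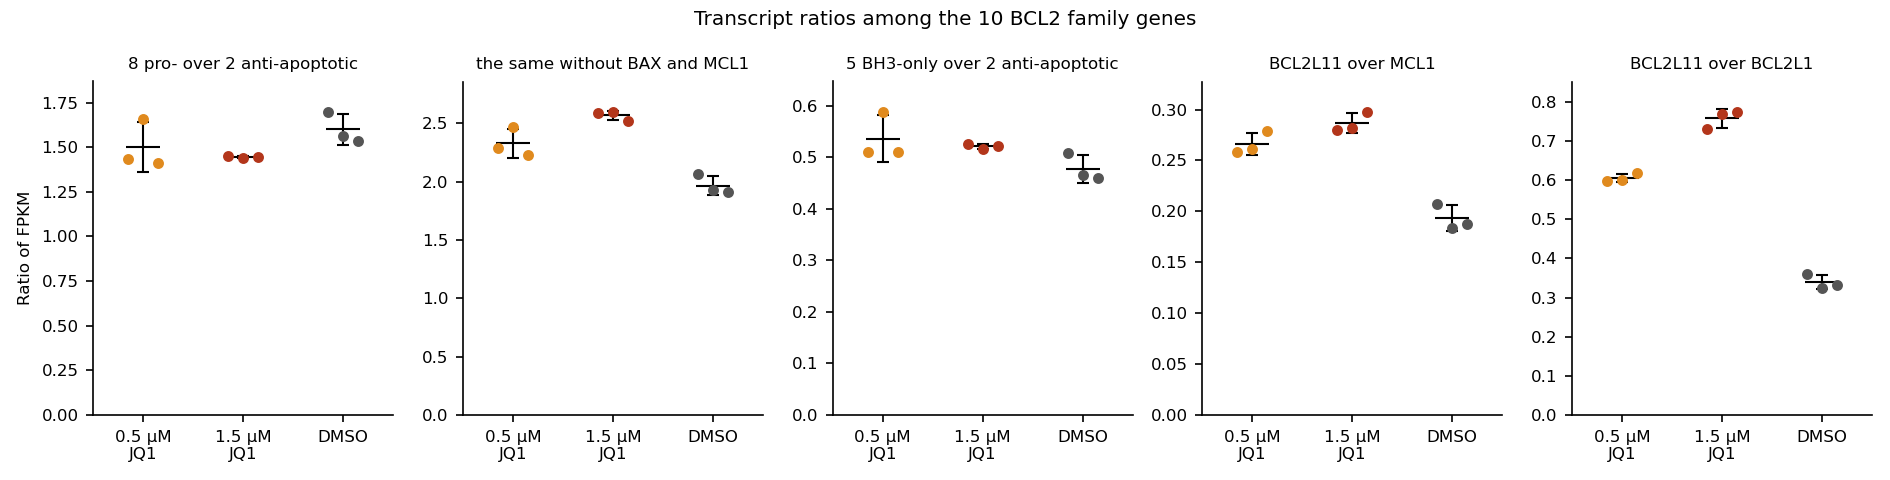
Ratios of FPKM in every library (points) with the mean and SD of 3 libraries for 0.5 µM JQ1, 1.5 µM JQ1 and DMSO, each panel with its own axis from 0. The ratio of the 8 pro-apoptotic over the 2 anti-apoptotic members averages 1.50, 1.44 and 1.60. Without BAX and MCL1, which leaves BCL2L1 alone as the denominator, it averages 2.33, 2.57 and 1.97. BCL2L11 over BCL2L1 parts the 3 groups without overlap.

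Genes around the 10 were counted from lists of the apoptosis pathway. Of 13 other BCL2 family genes, 9 were tested, and 3 rose and 3 fell at 0.5 µM, 2 rose and 4 fell at 1.5 µM. The 6 of 9 called at each dose stand beside 70% of all genes tested at 0.5 µM and 73.1% at 1.5 µM. BCL2L10, an inhibitor gene, had 11.4, 24.7 and 19.2 normalized counts at 0.5 µM, 17.5, 10.6 and 13.3 at 1.5 µM, and 68.9, 64.5 and 60.2 in DMSO. Though low in every library it fell most on the list, with log2 fold changes of -1.82 ± 0.318 at 0.5 µM and -2.17 ± 0.318 at 1.5 µM (SE). BCL2L2, the gene of the inhibitor BCL-W, fell (-0.28 ± 0.040 at 0.5 µM and -0.40 ± 0.040 at 1.5 µM). BID, the BH3-only link from death receptors to mitochondria, fell as well (-0.51 ± 0.057 and -0.63 ± 0.057). BNIP3L, a BH3-like receptor of mitophagy, rose by 0.71 ± 0.031 and 0.75 ± 0.031. The median log2 fold change of the list was 0.02 at 0.5 µM and -0.08 at 1.5 µM, against -0.01 and -0.0030 over all genes tested.

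Downstream of the pores, 18 of 19 listed apoptosome, caspase and inhibitor genes were tested, with 7 higher and 5 lower at 0.5 µM and 8 higher and 5 lower at 1.5 µM. That is 12 of 18 and 13 of 18 called, against 70% and 73.1% of all genes tested. Of the apoptosome genes, APAF1, which builds its scaffold, rose by 0.73 ± 0.060 at 0.5 µM and 0.82 ± 0.060 at 1.5 µM (SE), and CASP9, its initiator caspase, by 0.72 ± 0.053 and 0.76 ± 0.053. DFFB, the nuclease that cuts DNA in dying cells, fell (-1.17 ± 0.086 at 0.5 µM and -1.55 ± 0.086 at 1.5 µM). BIRC6, a giant inhibitor of apoptosis, rose by 0.30 ± 0.070 and 0.58 ± 0.070, but its call at 0.5 µM was lost on FPKM values (0.04, adjusted p = 0.713). The list's median was 0.03 at 0.5 µM and 0.10 at 1.5 µM, against -0.01 and -0.0030 over all genes tested.

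In the death receptor arm 6 of 12 listed genes were tested, and 2 rose and 4 fell at each dose, where 70% (0.5 µM) and 73.1% (1.5 µM) of all genes tested were called. TNFRSF1A, a receptor of tumour necrosis factor, had 15.6, 20 and 23.7 normalized counts at 0.5 µM, 34.0, 18.6 and 20.5 at 1.5 µM, and 149, 178 and 176 in DMSO. Its log2 fold change was -3.04 ± 0.259 at 0.5 µM and -2.78 ± 0.259 at 1.5 µM (SE), a fall past the test at each dose. CFLAR, which encodes the caspase-8 inhibitor FLIP, had 486, 567 and 494 normalized counts at 0.5 µM, 349, 353 and 353 at 1.5 µM, and 1525, 1590.1 and 1595 in DMSO. CFLAR fell (-1.61 ± 0.065 at 0.5 µM and -2.15 ± 0.065 at 1.5 µM), and so did CASP8, the gene of caspase-8 itself (-0.53 ± 0.059 and -0.62 ± 0.059). RIPK1, a kinase of the same complexes, rose by 0.41 ± 0.039 and 0.46 ± 0.039. The list's median was -0.38 at 0.5 µM and -0.45 at 1.5 µM, against -0.01 and -0.0030 over all genes tested.

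Transcription factors and cofactors known to act on the member genes were all measured, 12 of 12, with 5 higher and 6 lower at 0.5 µM and 5 higher and 5 lower at 1.5 µM. The background was 35.3% higher and 34.7% lower of all genes tested at 0.5 µM, and 36.9% and 36.2% at 1.5 µM. FOXO3, an activator of BCL2L11 and BBC3, had 6219.8, 5419.8 and 6355 normalized counts at 0.5 µM, 7317, 7580.4 and 7323 at 1.5 µM, and 3494, 3725 and 4016 in DMSO, a rise of 0.68 ± 0.064 at 0.5 µM and 0.99 ± 0.064 at 1.5 µM (log2, SE). JUN, another known activator of BCL2L11, rose by 0.93 ± 0.031 and 1.04 ± 0.031. FOXO1, also on this list, was lower under JQ1, with means of 3.10 FPKM at 0.5 µM, 3.64 FPKM at 1.5 µM and 4.06 FPKM in DMSO. Whether any of these factors acted on BCL2L11 here was not tested. ATF4, a stress factor that induces PMAIP1, fell (-0.50 ± 0.083 at 0.5 µM and -0.72 ± 0.083 at 1.5 µM), as did its target TRIB3 (-1.70 ± 0.047 and -2.03 ± 0.047) and MYC (-0.49 ± 0.024 and -0.67 ± 0.024). The list's median was -0.21 at 0.5 µM and -0.06 at 1.5 µM, against -0.01 and -0.0030 over all genes tested.

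Of 13 listed genes for proteins that act on member proteins, 12 were tested, with 7 higher and 3 lower at each dose. Of all genes tested 35.3% were higher and 34.7% lower at 0.5 µM, and 36.9% and 36.2% at 1.5 µM. HUWE1, a ubiquitin ligase of MCL-1, rose by 0.35 ± 0.065 at 0.5 µM and 0.73 ± 0.065 at 1.5 µM (log2, SE), and USP9X, a deubiquitinase of MCL-1, by 0.29 ± 0.070 and 0.61 ± 0.070. Enzymes with opposite effects on the MCL-1 protein were thus both higher. The USP9X call at 0.5 µM was lost without the 3 H19-rich libraries (adjusted p = 0.0504). DYNLL2, the dynein light chain that holds BMF, rose by 0.48 ± 0.051 and 0.59 ± 0.051, whereas DYNLL1, the light chain that holds BIM, had 0.19 ± 0.088 (adjusted p = 0.0807) and 0.06 ± 0.088 (adjusted p = 0.531). DYNLL1 at 0.5 µM rested on 1 library: its normalized counts were 14298, 18275 and 13645, and without replicate 2 the value was 0.06 (adjusted p = 0.119). It passed without 0.5 µM replicate 3 (0.27, adjusted p = 0.0161), with library weights (0.09, adjusted p = 0.0209) and by DESeq2 (0.20, adjusted p = 0.0374), and at 1.5 µM in a fit to the 6 libraries compared (adjusted p = 0.0466). VDAC2, the channel that recruits BAK1 to mitochondria, fell (-0.40 ± 0.043 and -0.39 ± 0.043). The list's median was 0.25 at 0.5 µM and 0.26 at 1.5 µM, against -0.01 and -0.0030 over all genes tested.

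**Figure D5:**
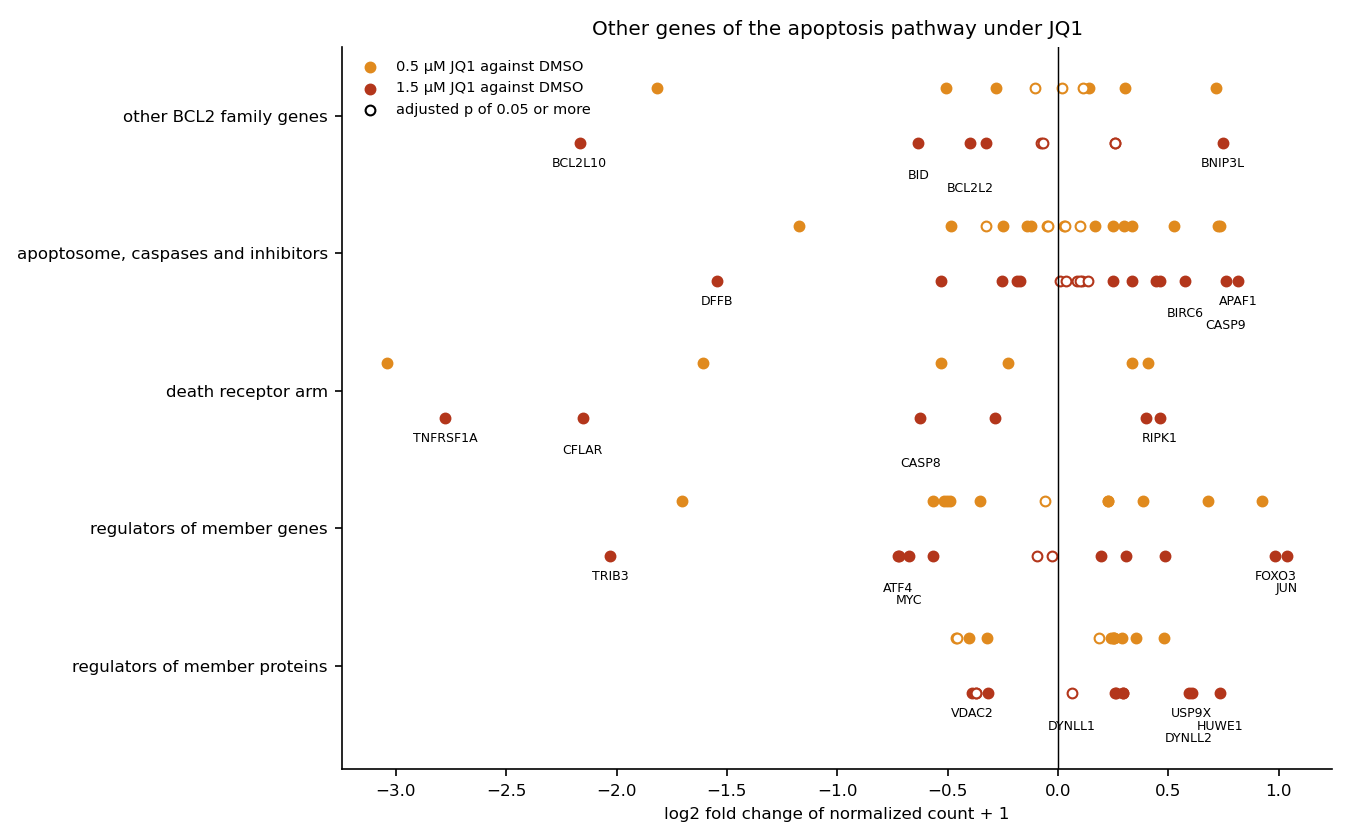
Log2 fold changes of normalized count + 1 (horizontal axis) of the tested genes of 5 lists around the 10 members. The upper row of each list is 0.5 µM JQ1 against DMSO and the lower row 1.5 µM JQ1 against DMSO. Open points have an adjusted p of 0.05 or more. Named genes other than BAD and FOXO1 are labelled below the 1.5 µM row. Each list holds genes on both sides of 0, with TNFRSF1A (-3.04 and -2.78) farthest left and JUN (0.93 and 1.04) farthest right.

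For each member the gene with the most similar profile was found among 14217 genes that averaged 100 normalized counts or more, by the distance between log2 profiles centred over the 9 libraries. BCL2L11 was nearest to PYGB, a glycogen phosphorylase (distance 0.0997, Pearson r = 0.998). BOK was nearest to PKP3 (0.154, r = 0.997), and BIK to DAPK2 at the longest distance of the 10 (0.314, r = 0.994). For the other members the nearest were HRAS (BBC3), TMEM230 (PMAIP1), NRM (BMF), OTUB1 (BAX), SNX11 (BAK1), APPBP2 (MCL1) and ASPSCR1 (BCL2L1), with distances of 0.0413 to 0.137 and r of 0.942 to 0.996. These r values are descriptions over 9 libraries in 3 groups that share size factors.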

How the data were processed

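Total RNA of COR-L279 cells was made into stranded libraries, per the labels. The labels call the 3 libraries of a group biological replicates without naming separate cultures, so p-values measure the spread between these libraries. The submitters' processing notes name cutadapt, STAR, RSEM and hg19. Their versions, the annotation release and the strand setting were not stated in any source used here. As deposited, the normalized counts are a signal: the authors divided each library's read counts by its DESeq2 size factor. FPKM values of 57820 genes were also deposited. Of the normalized values, 100% came out as whole reads within 0.001 of a whole number. No deposited column belonged to other samples (0).

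Log2(normalized count + 1) was fitted with limma 3.58.1 (R 4.3.3), with a mean-variance trend and all 9 libraries in 1 fit. Genes needed 10 normalized counts in 3 libraries. Tests were two-sided, adjusted by Benjamini-Hochberg over 17514 genes, with 0.05 as the threshold. Changes of low genes are understated on this scale. No spike-in is named, so each fold change is relative to most other genes. Alternatives changed 1 choice at a time, except FPKM, which changes unit, pseudocount and filter together. They were each library left out, pseudocounts of 0.1 and 5, no filter or a minimum of 50, log2(FPKM + 0.1) with 0.5 FPKM in 3 libraries, upper-quartile and TMM scaling, no trend, library weights, only the 6 libraries compared, the replicate number as a block, and edgeR 4.0.16 and DESeq2 1.42.0 on recovered counts. The fit without the 3 H19-rich libraries and the sums with 7 other family genes were added after seeing the data. The code was tested on simulated data. edgeR called 12240 genes at 0.5 µM, 12897 at 1.5 µM and 2283 between doses.

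The members and lists were chosen with earlier results of these data known. All 10 members are named. From each list the 4 called genes with the largest change at 1.5 µM and at least 20 mean normalized counts are named, plus FOXO3, DYNLL1, DYNLL2 and BCL2. HEXIM1 and MYC are named as checks of JQ1, and markers of the subtype and of other cells as checks of the label. Some results that the lists hold are not reported here. Replicates of a group differed by 3.41 to 31.2 in chi-square per degree of freedom, more than counting error. The pairs with 0.5 µM replicate 2 had the highest values, 26.9 and 31.2, and all other pairs had at most 7.56. H19, SLC2A3, BAD and FOXO1 were named after their values were seen, and DCN and YAP1 were picked from the marker lists in the same way. Overlapping genes came from GENCODE release 29 by Ensembl ID.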

Additional observations from a re-analysis of the deposited data

How the results depend on the processing

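Of 690 values of the 10 members under alternatives, 636 kept their direction and side of the threshold, 42 fell short of it, 5 newly passed and 7 turned sign, all 7 from values that had not passed. BAK1 turned at 0.5 µM with library weights (0.0044) and without 0.5 µM replicate 2 (0.015; -0.11 to 0.015 with 1 library left out), and at 1.5 µM on FPKM values (-0.021) and under upper-quartile scaling (-0.015). BBC3 between the doses turned without 0.5 µM replicate 1 (0.0062), 1.5 µM replicate 2 (0.011) or 1.5 µM replicate 3 (0.0020), with a range of -0.083 to 0.011 with 1 library left out. The cause was not tested. Genes called at 1.5 µM against 0.5 µM (2233) numbered 892 on FPKM values, 5238 with library weights, 1123 in the fit to the 6 libraries compared and 48 without the 3 H19-rich libraries, and 1002 to 3217 with 1 library left out. Members called between the doses (3) numbered 1 on FPKM values, 6 with library weights, 0 without the 3 libraries, and 1 to 3 with 1 library left out. With 1 library left out, 8 to 9 members were called at 0.5 µM and 7 to 9 at 1.5 µM against DMSO. On FPKM values 8 and 6 were called. Leaving out the highest gene of each sum left BCL2L1 as the only inhibitor. The ratio of pro-apoptotic to anti-apoptotic FPKM then averaged 2.33 at 0.5 µM, 2.57 at 1.5 µM and 1.97 in DMSO. With 7 other family genes added to the 10 members, the ratio averaged 1.70, 1.61 and 1.80. Over the 10 members with 1 library left out, it averaged 1.42 to 1.55 at 0.5 µM, 1.44 to 1.45 at 1.5 µM and 1.55 to 1.63 in DMSO. Deviations of same-numbered libraries from their group means had r of -0.456 to -0.148 between the JQ1 doses. For differently numbered libraries of the JQ1 doses r was -0.127 to 0.316. Between JQ1 and DMSO r was 0.036 to 0.243 for same-numbered and -0.248 to 0.081 for differently numbered libraries. These values do not settle whether the numbers pair samples. A replicate block called 12329 genes and 9 members at 0.5 µM, 12852 genes and 8 members at 1.5 µM, and 2030 genes and 3 members between the doses. Under the block BMF at 1.5 µM had an adjusted p of 0.0735. No scaling moved the median of all genes by over 0.1 on the log2 scale. With 3 libraries a group, BMF at 1.5 µM and BAX at 0.5 µM are near the threshold.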
